A study of Mus musculus with 18 samples.

Results

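Gene expression in the mouse distal colon early in the dark was compared with that early in the light. The dark side held the 6 arrays of 8pm and 12am, and the light side the 6 arrays of 8am and 12pm, so 12 of the 18 arrays of the series were used and each side had 3 arrays from each of 2 times. The 4 times were chosen from the collection times in the titles. They lie 1 h and 5 h after lights off and 1 h and 5 h after lights on, so that each dark time has a light time 12 h away from it. The other 6 arrays, of 4am and 4pm, were kept out of the test, because 4 of them had 3′ over 5′ Gapdh ratios above 2, a sign of shortened RNA.

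The study measured total RNA of colon resected close above the anus on Affymetrix 430 2.0 arrays, with 3 arrays at each of 6 times. All mice had spent 2 weeks under 12 h of light, from clock hour 7 to clock hour 19, and 12 h of dark, and had free access to food. As far as the labels say, the groups of this comparison share housing, free access to food and the tissue taken. The time of collection is the only difference that the labels name. Since mice feed mainly in the dark, feeding and time of day cannot be told apart here. Strain, age, sex and genotype are not given in the sources used here, nor is it stated whether an array held 1 mouse or a pool, so the spread between arrays may be partly technical.

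The circadian clock is a transcriptional loop in nearly every cell: the activators CLOCK and BMAL1 (gene Arntl) bind E-boxes and turn on the period and cryptochrome genes, whose proteins repress the activators. REV-ERB proteins (Nr1d1, Nr1d2) and ROR proteins set the timing of Arntl, and the transcription factors DBP, TEF and HLF pass the rhythm on to output genes. In the gut the clock and the timing of meals act on a lining that is renewed continuously from dividing cells in the crypts, and division in rodent intestine is known to be concentrated at certain times of day. Mice are active and feed mainly in the dark.

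The 12 arrays had similar control ratios, and all had strong signal of colon markers. Some also held transcripts of the exocrine pancreas, described further below. The trypsinogen gene Prss2 was at 26906 in 12am b and 10480.3 in 12am a, against 65.7 in 8am c. The Gapdh control, read at its 3′ over its 5′ end, had ratios of 0.793 to 1.12 in the dark arrays and 0.746 to 0.873 in the light arrays, and median signal per array was 168 to 252 in the dark and 161 to 221 in the light. By hour, median signal was 161 to 184 in the 8am and 8pm arrays and 188 to 252 in the 12pm and 12am arrays. Markers of absorptive colonocytes were among the strongest signals: Car1, a carbonic anhydrase, ranged from 10274 to 17678 in the dark and from 9100.2 to 15359 in the light, and Slc26a3, the chloride bicarbonate exchanger, from 16974 to 24864 in the dark and from 13551 to 20720.4 in the light. The goblet cell mucin Muc2 gave 15755 to 23504 in the dark and 13952 to 20606 in the light. These ranges overlap between the sides.

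Of 12870 genes tested, 57 differed between dark and light at an adjusted p under 0.05, which is 0.443% of the genes. Among them 24 were higher in the dark (0.186%) and 33 were lower (0.256%). The 24 held 6 genes of the clock output list and the repressor Per2, and the 33 held 5 genes of the mitosis list and Clock. The test was limma on log2(signal + 16), with p-values adjusted by the Benjamini-Hochberg method over all genes, and differences are given on that scale, dark minus light. That scale understates the change of genes with low signal. The median difference over all genes was 0.03, 54.8% of all genes had a difference above 0, and 2110 genes had an unadjusted p under 0.05. Groups did not overlap for 36 genes that had all 6 dark arrays above all 6 light arrays (0.28%) and for 47 genes with all 6 below (0.365%).

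The count of calls depended on single arrays. It was 7 without 8pm a, 10 without 8pm b, 14 without 8am c, 23 without 12pm a and 23 without 12pm b, but 89 without 12pm c. With each of the 12 arrays left out in turn, 7 genes passed every time: Tef, Tspan4, Per2, Usp2 and Akr1c19 among those that were higher and Spon2 and Hmgb2 among those that were lower. When the 4am and 4pm arrays also entered the estimate of the spread, 1 gene passed, Tspan4.

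**Figure D1:**
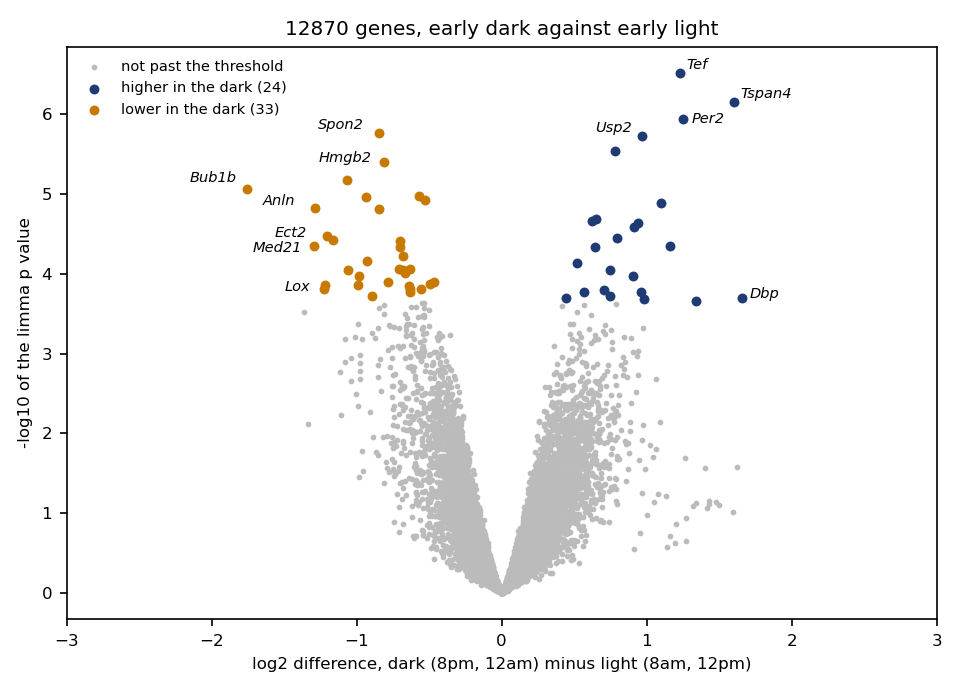
Log2 difference, dark (8pm and 12am) minus light (8am and 12pm), on the x axis against the -log10 of the limma p-value on the y axis, for each of 12870 genes. Blue points are the 24 genes higher in the dark and orange points the 33 lower in the dark; Tef and Tspan4 stand highest on the right and Spon2 and Hmgb2 on the left, with Bub1b the farthest to the left at -1.75.

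Of 13 tested members of the clock output list, 6 rose in the dark and none fell, where 0.186% of all genes rose. All 13 had a difference above 0, as did 54.8% of all genes, and the list median was 0.40 against 0.03 for all genes. The 6 were the transcription factor genes Dbp, Tef and Hlf, the ubiquitin protease gene Usp2, the tetraspanin gene Tspan4 and Wee1, whose kinase delays mitosis by inhibiting CDK1. The lists were chosen with earlier results of these data known, so the count describes these arrays and is no independent test of a direction.

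Tef had the lowest p of all genes. Its signal was 2748, 3239 and 2046 at 8pm and 2720.1, 2527 and 1896 at 12am, against 633, 602 and 811 at 8am and 2019, 1495 and 1452 at 12pm. Arrays of 8am were far below the rest, and 1 array of 12pm, at 2019, lay above the lowest dark array, so the sides overlapped slightly. The difference was 1.23 ± 0.14 (SE; adjusted p = 0.0039), a 2.34-fold higher level in the dark, made of 1.94 between 8pm and 8am and 0.52 between 12am and 12pm. A further probe set of Tef differed by 0.63 (limma on every probe set kept, adjusted p = 0.19).

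Tspan4, which encodes a tetraspanin of the cell surface, gave signals of 496, 539.8 and 361 at 8pm and 1059, 579 and 563 at 12am, against 115, 182 and 203 at 8am and 241, 156 and 187 at 12pm. All dark arrays were above all light arrays, and 12am a was the highest of the 12. The difference of 1.60 ± 0.20 (SE; adjusted p = 0.0045) was a 3.03-fold higher level, and it was similar at the pair of 8 o'clock times (1.41) and at the 12 o'clock times (1.79).

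Usp2 had 1603, 1693 and 1215 at 8pm and 958, 709 and 749.6 at 12am, against 697, 584 and 649 at 8am and 560.5, 481 and 393 at 12pm. Dark and light arrays did not overlap, and the 8pm arrays were higher than those of 12am. The difference was 0.96 ± 0.13 (SE; adjusted p = 0.0049). Hlf ranged over 403 to 772 in the dark (median 571), against 232 to 366 in the light (median 334), again without overlap, with a difference of 0.80 ± 0.14 (SE; adjusted p = 0.022). Wee1 ranged over 1095 to 2038 in the dark (median 1503), against 674 to 1334 in the light (median 935), and its difference of 0.71 ± 0.14 (SE; adjusted p = 0.043) came mostly from midnight against noon (1.13) rather than 8pm against 8am (0.29). A further probe set of Wee1 differed by 0.03 only.

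Dbp had the largest difference of any gene that rose, 1.66 ± 0.34 (SE; adjusted p = 0.047), but the difference was not above 0 at both hours. Its signal was 4890.3, 4907 and 1568 at 8pm and 935, 729 and 611 at 12am, against 149, 152 and 588 at 8am and 1541, 863 and 725 at 12pm. The 8pm arrays were the highest of all and the 8am arrays the lowest, while the noon arrays lay between those and partly above the midnight ones. The difference was accordingly 3.72 between 8pm and 8am and -0.40 between 12am and 12pm.

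The 7 other outputs did not pass. Their differences were 0.40 for Tsc22d3, a glucocorticoid-induced leucine zipper, 0.39 for the cold-inducible RNA-binding protein gene Cirbp, 0.27 for Cipc, an interactor of CLOCK, 0.15 for Coq10b, 0.14 for Lonrf3, 0.11 for Dtx4 and 0.02 for Nampt, an enzyme gene of NAD synthesis. The sign for Cipc, Lonrf3, Dtx4 and Nampt turned below 0 under at least 1 other setting of the analysis.

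Promoters of 5 called genes are shown to let the letters around the start site be read beside these values. They are the 5 of lowest p that held a searched motif among the called genes named for the size of their difference or for their list. Akr1c19, with a CCAAT box, and Hmgb2, with CCAAT boxes and TTTGAA, had lower p than 3 of the 5 but are named here after their values were seen, and their promoters are not shown. They come from RefSeq on build GRCm38.p6 and run from 250 bases before the start site to 50 bases after it, 5′ to 3′ on the gene's strand. Capitals mark every match on either strand to the E-box CACGTG, the D-box TTATGTAA or TTACGTAA, the nuclear receptor element TAGGTCA, the CCAAT box CCAAT, the cell cycle homology region TTTGAA and the heat shock element.

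Tef at the gene's 5′ end, chr15:81802423-81802722, plus strand: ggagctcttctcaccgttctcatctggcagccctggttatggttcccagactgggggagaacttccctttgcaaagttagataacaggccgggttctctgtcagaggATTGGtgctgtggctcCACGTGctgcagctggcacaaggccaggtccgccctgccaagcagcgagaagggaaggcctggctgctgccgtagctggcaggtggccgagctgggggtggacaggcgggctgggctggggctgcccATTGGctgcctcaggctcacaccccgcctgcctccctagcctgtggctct
Tef at an internal start, chr15:81811164-81811463, plus strand: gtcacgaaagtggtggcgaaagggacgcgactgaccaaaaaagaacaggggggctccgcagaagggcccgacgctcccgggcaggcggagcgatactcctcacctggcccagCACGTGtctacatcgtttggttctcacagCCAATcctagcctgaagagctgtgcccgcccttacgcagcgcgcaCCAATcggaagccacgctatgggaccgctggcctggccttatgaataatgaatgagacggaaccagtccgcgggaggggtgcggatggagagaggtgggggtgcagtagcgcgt
Tspan4 at an internal start, chr7:141476130-141476429, plus strand: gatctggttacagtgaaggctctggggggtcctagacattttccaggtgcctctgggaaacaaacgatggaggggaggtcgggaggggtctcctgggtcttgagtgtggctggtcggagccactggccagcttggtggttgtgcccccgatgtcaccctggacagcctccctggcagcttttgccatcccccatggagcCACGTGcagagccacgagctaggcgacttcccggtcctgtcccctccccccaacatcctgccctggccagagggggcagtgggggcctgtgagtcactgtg

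Both Tef promoters and the internal one of Tspan4 held 1 E-box each, beginning at base -127 and -138 from the start site in Tef and at -51 in Tspan4. The promoter at the 5′ end of Tspan4 held none of the searched motifs. An E-box stood in a promoter of 5 of the 18 higher genes and 2 of the 23 lower genes that had a promoter in the table. The same letters were found in 7.15% of all 32851 promoters and in at least 1 promoter of 11.3% of the 10356 tested genes that had one. The D-box and the heat shock element were found in none of these genes, and they stood in 1.06% and 0.603% of all promoters. The nuclear receptor element was found in 1 higher and 2 lower genes and in 2.61% of all promoters. A match is a string of letters and is not shown to be a bound site.

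Core clock genes differed in both directions between dark and light, and most of them did not pass the test. Of 15 tested, Per2 rose, Clock fell and 13 did not pass, with 10 differences above 0 and a list median of 0.25 against 0.03 for all genes. Of all genes, 0.186% rose, 0.256% fell and 54.8% had a difference above 0. Per2, a repressor of the loop, had 715, 1112 and 813 at 8pm and 585, 489 and 762 at 12am, against 388, 393 and 272 at 8am and 308, 216 and 235 at 12pm. Dark and light arrays did not overlap. The difference was 1.25 ± 0.16 (SE; adjusted p = 0.0049), a 2.37-fold higher level, and it was alike at the 8 o'clock (1.28) and 12 o'clock times (1.21).

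Clock, which encodes the partner of BMAL1, had 790.0, 902 and 927 at 8pm and 449, 481 and 713 at 12am, against 1187, 1307 and 1256 at 8am and 946, 912 and 886 at 12pm. The midnight arrays were the lowest and the 8am arrays the highest, while 8pm and noon were close to each other. The difference was -0.63 ± 0.12 (SE; adjusted p = 0.033), a 1.55-fold higher level in the light. Every other probe set of Clock that was kept also had a difference below 0.

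The activator partners of this loop arm did not pass. Arntl had 797, 634 and 683 at 8pm and 762, 1263 and 985 at 12am, against 1365, 1843 and 1318 at 8am and 1019.9, 995 and 1579 at 12pm, with a difference of -0.66 ± 0.15 (SE; adjusted p = 0.068). The mean was lowest at 8pm and highest at 8am, and midnight and noon overlapped. Npas2, a relative of CLOCK, ranged over 222 to 459 in the dark (median 309.6), against 256 to 1035 in the light (median 575), with a difference of -0.67 ± 0.19 (SE; adjusted p = 0.11).

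Of the other repressors, Per1, Per3, Cry1, Cry2 and Ciart had differences above 0 without passing. Per1 differed by 0.73 ± 0.26 (SE; adjusted p = 0.18), Per3 by 0.40 ± 0.13 (SE; adjusted p = 0.15), Cry1 by 0.79 ± 0.22 (SE; adjusted p = 0.11), Cry2 by 0.66 ± 0.21 (SE; adjusted p = 0.15) and Ciart, which encodes a repressor of CLOCK and BMAL1, by 0.88 ± 0.33 (SE; adjusted p = 0.21). The signal of Cry1 was 372, 287 and 410.2 at 8pm and 672, 614 and 413 at 12am, against 508, 427 and 204 at 8am and 125, 195 and 216 at 12pm. It was level between 8pm and 8am (-0.01) and higher at midnight than at noon (1.58). The test that its difference is unequal at the 2 hours did not pass (limma, adjusted p = 0.36).

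The REV-ERB genes, which also encode repressors, had differences of opposite sign at the 2 hours. Nr1d1 had 642, 642 and 635 at 8pm and 258, 422 and 373 at 12am, against 438, 348 and 1119.8 at 8am and 1919, 1351 and 1449.7 at 12pm, so that the mean was highest at noon and lowest at midnight. Its difference was -0.97 ± 0.23 (SE; adjusted p = 0.068), with 0.20 between 8pm and 8am and -2.13 between 12am and 12pm. Nr1d2 had 4551, 4681 and 2525 at 8pm and 1251, 2272 and 2209 at 12am, against 1063, 870.4 and 1386 at 8am and 3425, 2617 and 3012 at 12pm, with 8pm and noon high and 8am and midnight low. Its difference was 0.54 ± 0.18 (SE; adjusted p = 0.17), with 1.78 between 8pm and 8am and -0.70 between 12am and 12pm. Smaller differences were found for Rora (0.14, adjusted p = 0.57), Bhlhe40, a further repressor gene (-0.13, adjusted p = 0.55), and the casein kinase genes Csnk1d (0.12, adjusted p = 0.52) and Csnk1e (0.25, adjusted p = 0.39).

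**Figure D2:**
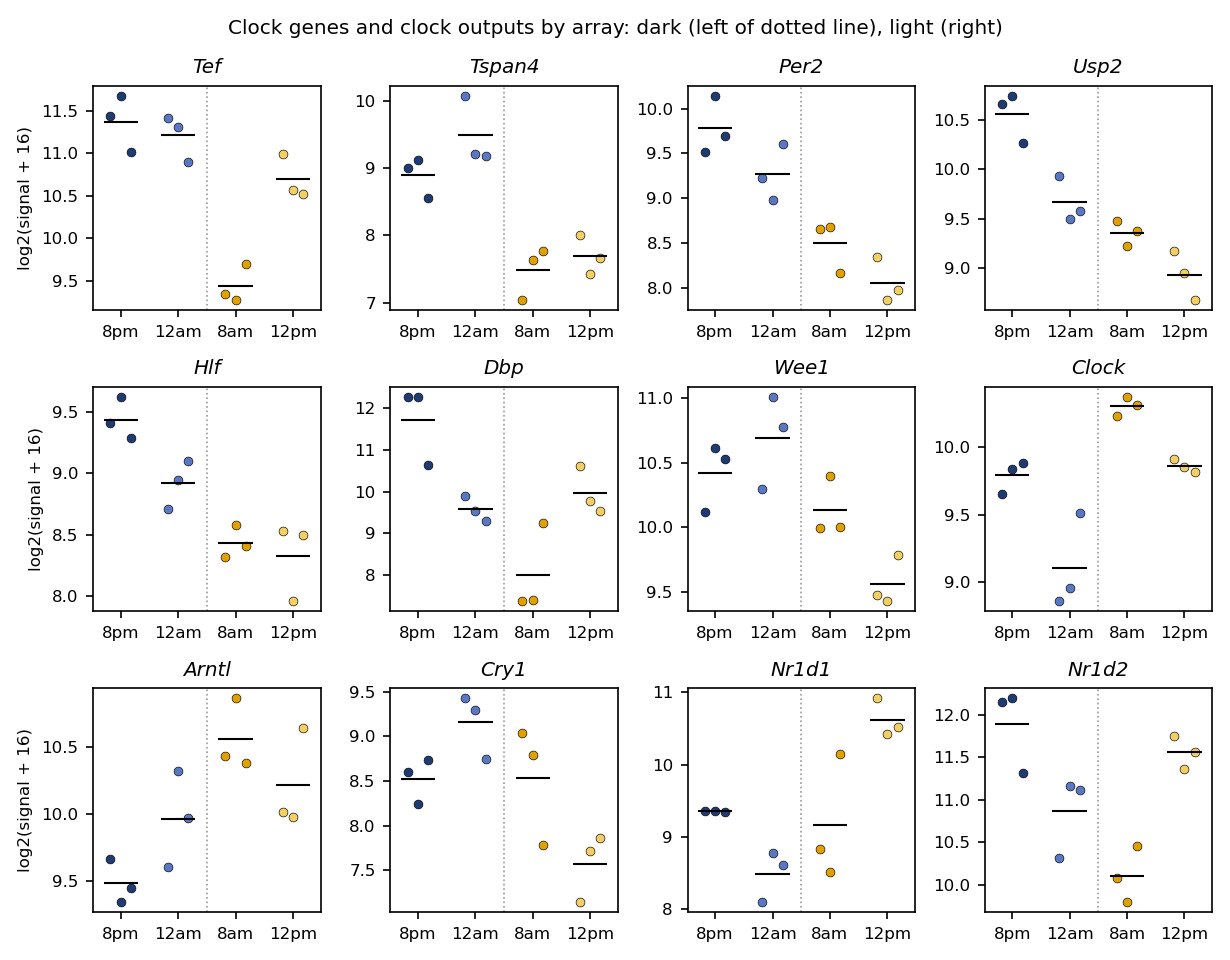
Log2(signal + 16) on the y axis of 12 clock genes and outputs, by collection time on the x axis; each point is 1 array and each line the mean of 3 arrays, with 8pm and 12am (dark) left of the dotted line and 8am and 12pm (light) right of it. Tspan4, Per2, Usp2 and Hlf have every dark array above every light array, while Dbp is highest at 8pm and lowest at 8am, Nr1d2 is high at 8pm and at 12pm and Nr1d1 is highest at 12pm.

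The pooled difference was also read at each hour, since each side joins 2 times. Between 8pm and 8am, 16 genes passed (0.124%), 5 higher and 11 lower at 8pm, and 891 had an unadjusted p under 0.05. Between 12am and 12pm, 102 genes passed (0.793%), 23 higher and 79 lower at 12am, and 2374 had an unadjusted p under 0.05. No gene passed the test that the difference is unequal at the 2 hours (limma; 1144 genes with an unadjusted p under 0.05, and 18 genes past the threshold when arrays were weighted by their quality). The lowest p of that test was that of Nr1d2 (adjusted p = 0.087), and Dbp and Sft2d1 followed.

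Of the 24 genes that were higher in the dark, 22 had a difference above 0 at both hours, 4 passed in the test of 8pm against 8am and 10 in that of 12am against 12pm. The exceptions in sign were Dbp and Sox21, a transcription factor gene, whose difference was -0.11 between 8pm and 8am and 1.61 between 12am and 12pm. All 33 genes that were lower had a difference below 0 at both hours, and 7 passed in the test of 8pm against 8am and 14 in that of 12am against 12pm. Genes of both directions were chosen on the mean of these 2 differences. A shared sign at both hours is therefore partly built in and is no independent support.

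**Figure D3:**
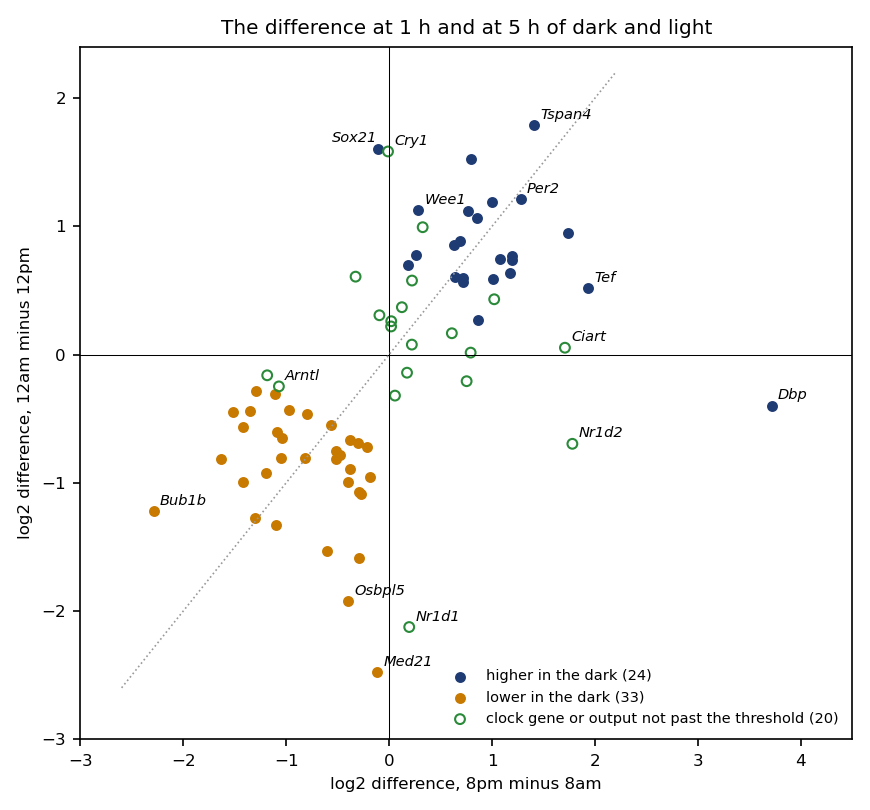
Log2 difference between 12am and 12pm on the y axis against the log2 difference between 8pm and 8am on the x axis, for the 24 genes higher in the dark, the 33 lower in the dark and 20 clock genes and outputs that did not pass; the dotted line marks equal differences. Per2 and Tspan4 lie near the line, Dbp and Nr1d2 lie to the lower right, and Med21 and Nr1d1 lie far down with little difference between 8pm and 8am.

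Of 23 tested members of the mitosis list, 5 fell in the dark and none rose, where 0.256% of all genes fell. A difference below 0 was found for 22, where 54.8% of all genes had a difference above 0. Of the 22, 20 had an unadjusted p under 0.05. Over all 12870 genes, 2110 had one in either direction. With each of the 12 arrays left out in turn, Bub1b passed in 11 of the 12 fits, but Mad2l1 in 5, Nusap1 in 4, Ccnb2 in 2 and Mki67 in 2. The list median was -0.75 against 0.03 for all genes. The mean of the list was 8.30 to 8.74 in the dark arrays and 8.72 to 9.89 in the light arrays on the log2 scale, and it was lowest at 8pm (8.43 ± 0.11, SD, n = 3) and highest at 8am (9.65 ± 0.36, SD, n = 3), with 8.73 ± 0.0045 at 12am and 9.02 ± 0.31 at 12pm. The list median was -1.32 between 8pm and 8am and -0.35 between 12am and 12pm. In bulk tissue, fewer dividing cells and less of these RNAs per cell cannot be told apart.

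Bub1b, which encodes a kinase of the spindle checkpoint, fell the most of any gene. Its signal was 45.6, 66.1 and 71.8 at 8pm and 295, 98.1 and 97.1 at 12am, against 398, 232 and 486 at 8am and 316, 443 and 317 at 12pm. The 8pm arrays were the lowest, and 12am a, at 295, was apart from the other midnight arrays and above 8am b. The difference was -1.75 ± 0.27 (SE; adjusted p = 0.012), a 3.37-fold higher level in the light.

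Ccnb2, cyclin B2, a partner of the mitotic kinase CDK1, had 524, 379.9 and 201 at 8pm and 511, 574 and 483 at 12am, against 1479, 635 and 1399 at 8am and 866, 1355 and 686 at 12pm. All dark arrays were below all light arrays, and the difference was -1.22 ± 0.24 (SE; adjusted p = 0.043). Mad2l1, another spindle checkpoint gene, ranged over 260.3 to 510.1 in the dark (median 434), against 467 to 1379 in the light (median 773), with a difference of -0.98 ± 0.19 (SE; adjusted p = 0.036). Nusap1, a spindle microtubule protein gene, ranged over 245 to 399.8 in the dark (median 312), against 339 to 1012 in the light (median 669), with -0.99 ± 0.20 (SE; adjusted p = 0.041), but another probe set of it differed by 0.10 in the opposite direction. Mki67, the proliferation marker Ki-67, ranged over 699 to 1389 in the dark (median 783), against 805 to 3316 in the light (median 1569), with -0.90 ± 0.18 (SE; adjusted p = 0.046). In the last 3 the dark and light ranges overlapped, because noon arrays reached down to the dark ones.

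Among the members with an unadjusted p under 0.05 that did not pass, adjusted p ran between 0.065 and 0.25. Tpx2 was the 1 member with a difference above 0, at 0.33.

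**Figure D4:**
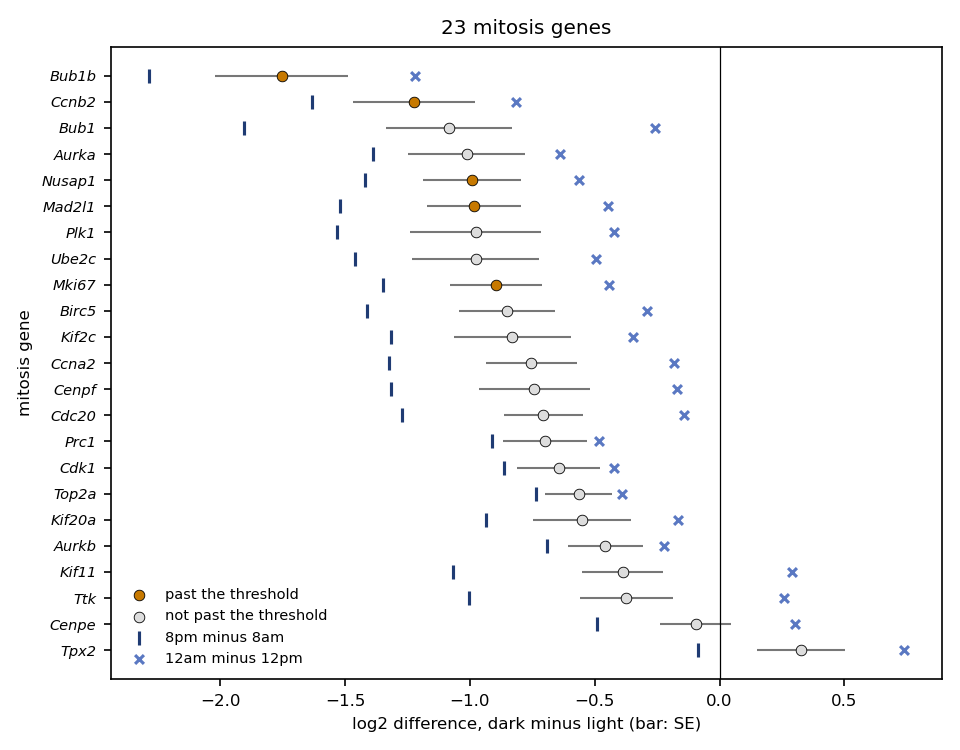
Log2 difference, dark minus light, on the x axis for each of 23 mitosis genes on the y axis, as circles with the standard error as bars; orange circles passed the threshold. Vertical ticks give 8pm minus 8am and crosses 12am minus 12pm. The 8 o'clock difference lies left of the 12 o'clock difference for every gene, and Tpx2 is the only gene whose circle lies right of 0.

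Another 6 genes known from cell division that the list does not hold were also lower in the dark, and they were singled out after their values were seen. Anln, anillin, which organises the cleavage furrow, had 169, 132 and 199.9 at 8pm and 83, 138 and 149.6 at 12am, against 469.6, 369 and 462 at 8am and 342, 441 and 202 at 12pm. All dark arrays were below all light arrays, and the difference was -1.29 ± 0.21 (SE; adjusted p = 0.013), close at the 2 hours (-1.31 and -1.27). Ect2, which acts in cytokinesis, ranged over 305 to 738 in the dark (median 458), against 522 to 2038 in the light (median 1257), with -1.21 ± 0.21 (SE; adjusted p = 0.021). The others were Ckap2 (-0.85, adjusted p = 0.013), a spindle protein gene, Nuf2 (-0.79, adjusted p = 0.041) and Knl1 (-0.71, adjusted p = 0.033), which encode kinetochore proteins, and Cdc23 (-0.63, adjusted p = 0.043), a subunit of the anaphase-promoting complex. Ckap2 and Cdc23 had no overlap between dark and light arrays.

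The promoters of the 3 lower genes among the 5 chosen for display are shown beside them, with capitals as in those of Tef and Tspan4.

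Bub1b, chr2:118597961-118598260, plus strand: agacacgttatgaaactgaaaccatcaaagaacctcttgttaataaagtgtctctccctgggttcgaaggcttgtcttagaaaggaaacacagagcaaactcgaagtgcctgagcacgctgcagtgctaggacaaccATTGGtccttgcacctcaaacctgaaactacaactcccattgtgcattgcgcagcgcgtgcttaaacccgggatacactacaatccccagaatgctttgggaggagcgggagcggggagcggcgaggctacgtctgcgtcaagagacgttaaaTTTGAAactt
Anln, chr9:22389157-22389456, minus strand: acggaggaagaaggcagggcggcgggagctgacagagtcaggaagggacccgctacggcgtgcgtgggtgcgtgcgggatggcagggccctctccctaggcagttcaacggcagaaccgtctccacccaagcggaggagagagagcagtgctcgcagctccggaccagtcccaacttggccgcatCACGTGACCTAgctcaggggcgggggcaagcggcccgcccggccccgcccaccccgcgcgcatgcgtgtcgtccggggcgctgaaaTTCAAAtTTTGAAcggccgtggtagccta
Cacna1b, chr2:24763103-24763402, minus strand: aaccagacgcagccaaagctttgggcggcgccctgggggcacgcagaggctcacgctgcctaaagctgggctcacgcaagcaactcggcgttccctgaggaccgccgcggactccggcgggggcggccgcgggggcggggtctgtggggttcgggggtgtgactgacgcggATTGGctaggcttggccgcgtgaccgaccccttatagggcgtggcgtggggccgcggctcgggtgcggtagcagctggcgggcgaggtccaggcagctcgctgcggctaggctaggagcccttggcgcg

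Bub1b held a CCAAT box in reverse, beginning at base -113, and TTTGAA beginning 41 bases after the start. Anln held TTTGAA and its reverse beginning at bases 29 and 22 after the start, and an E-box at -65 that overlaps a reversed nuclear receptor element at -61. The letters TTTGAA, or their reverse, stood in a promoter of 10 of the 23 lower genes and none of the 18 higher genes, in 17.9% of all promoters and in 14.6% of tested genes. The CCAAT box stood in 13 of the 23 lower and 7 of the 18 higher genes, in 37.4% of all promoters and 42.1% of tested genes.

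Genes of DNA replication, the step before mitosis, gave no calls. Of 21 tested, none passed, 14 differences were above 0 and 1 had an unadjusted p under 0.05, with a list median of 0.08. The list mean was 9.08 to 10.18 in the dark and 9.15 to 9.77 in the light. The dark range rests on 1 array, 8pm c, which held the 10.18, and the list median was -0.10 without 8pm c and 12am a. The lowest p values were those of Ccne2, cyclin E2 (0.48, adjusted p = 0.28), Mcm2, a helicase subunit (0.38, adjusted p = 0.36), Gins2 (-0.71, adjusted p = 0.37) and Cdt1, a licensing factor (0.28, adjusted p = 0.47). The difference of Gins2 was -1.15 without 8pm c (adjusted p = 0.060).

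Crypt base and Wnt target genes had differences mostly below 0, without a call. Of 15 tested, none passed, and 14 had a difference below 0, with a median of -0.18. The list mean was 8.88 to 9.14 in the dark and 9.09 to 9.27 in the light. The lowest p was that of Myc, a growth regulator and Wnt target, at 136 to 299 in the dark (median 251), against 254 to 409 in the light (median 368), with a difference of -0.63 ± 0.16 (SE; adjusted p = 0.081). Smoc2 differed by -0.33 (adjusted p = 0.16) and Lrig1, a marker of crypt stem cells, by -0.44 (adjusted p = 0.17), while Notum, an inhibitor of Wnt ligands, had the other sign (0.46, adjusted p = 0.21).

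Apart from cell division, the genes that were lower in the dark came from many functions. Med21, a subunit of the Mediator complex, had 251, 217 and 185 at 8pm and 32.3, 47.8 and 32 at 12am, against 312, 126 and 325 at 8am and 296, 257 and 284 at 12pm. The midnight arrays were the lowest, and 8am b was the lowest of the light. The difference was -1.30 ± 0.23 (SE; adjusted p = 0.022), with -0.12 between 8pm and 8am and -2.48 between 12am and 12pm. Osbpl5, an oxysterol-binding protein gene, had 287, 256 and 356 at 8pm and 97.3, 86.4 and 112 at 12am, against 279, 471 and 475 at 8am and 537, 514 and 259 at 12pm, again lowest at midnight, with -1.16 ± 0.20 (SE; adjusted p = 0.022). Lmnb2, lamin B2 of the nuclear lamina, ranged over 90.1 to 333 in the dark (median 179.8), against 261 to 406 in the light (median 340.3), with -0.94 ± 0.15 (SE; adjusted p = 0.013), of which -0.29 fell to the 8 o'clock times and -1.58 to the 12 o'clock times.

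Lox, lysyl oxidase, which cross-links collagen, had 116, 149 and 91.1 at 8pm and 52.3, 127 and 151 at 12am, against 191, 379 and 268 at 8am and 285, 280.5 and 275 at 12pm. Every dark array was below every light array, and the difference was -1.22 ± 0.24 (SE; adjusted p = 0.041). Cacna1b, a neuronal calcium channel subunit, had 231, 267 and 283 at 8pm and 112, 113 and 139.9 at 12am, against 335, 562 and 347 at 8am and 410.1, 338 and 398 at 12pm, also without overlap and lowest at midnight, with -1.07 ± 0.16 (SE; adjusted p = 0.011). Cpm, carboxypeptidase M, ranged over 954 to 2148 in the dark (median 1124), against 1806 to 3210.2 in the light (median 2858), with -1.06 ± 0.20 (SE; adjusted p = 0.033).

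Spon2 and Hmgb2 had the lowest and the next lowest p of the genes that fell, although arrays of each side spread widely between its 2 times and the sides overlapped. Spon2, a secreted matrix protein gene, had 296, 292 and 256 at 8pm and 507, 468 and 613 at 12am, against 611, 552 and 628 at 8am and 776, 889 and 840.2 at 12pm. Each dark time was below the light time 12 h away, and the 8pm arrays were the lowest of all. The difference was -0.85 ± 0.11 (SE; adjusted p = 0.0049). Hmgb2, a chromatin protein gene, had 2220.2, 2289 and 2101 at 8pm and 755, 867 and 974 at 12am, against 4425, 3019.9 and 4398 at 8am and 1372, 1502 and 1697 at 12pm, where 8 o'clock arrays were high and 12 o'clock arrays low on both sides. Its difference was -0.81 ± 0.12 (SE; adjusted p = 0.0073), close at both hours (-0.82 and -0.81).

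The remaining lower genes, named after their values were seen, had differences from -0.70 to -0.47. They were Timm21, of mitochondrial protein import, Kit, the receptor of mast cells and pacemaker cells (-0.68, adjusted p = 0.033), Ifngr2, a subunit of the interferon gamma receptor (-0.68, adjusted p = 0.027), Ttc30b, of transport within cilia (-0.66, adjusted p = 0.035), Plekha5, Tbccd1, the sorting nexin gene Snx24 (-0.57, adjusted p = 0.013), Ddc, aromatic amino acid decarboxylase (-0.56, adjusted p = 0.043), Mboat1 and Vsig10. Another probe set of Ifngr2 differed by 0.06 with the other sign. The 2 lower genes left are clones without a gene name.

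Besides the clock, the genes that were higher in the dark included Rsph6a, Tuba8 and Cys1. Rsph6a, which encodes a radial spoke protein of cilia and sperm, had 215, 158 and 201 at 8pm and 285, 374 and 333 at 12am, against 25.3, 124 and 24.7 at 8am and 157, 150.3 and 182 at 12pm. The arrays 8am a and 8am c were far below the rest, and the sides overlapped, with a difference of 1.34 ± 0.28 (SE; adjusted p = 0.05). Tuba8, an alpha tubulin, had 244, 273 and 235 at 8pm and 173, 325 and 267 at 12am, against 114, 163 and 138 at 8am and 51.8, 93.2 and 86.7 at 12pm. All dark arrays were above all light arrays, and the difference was 1.16 ± 0.21 (SE; adjusted p = 0.022). Cys1, cystin 1, a cilium-associated protein, ranged over 349 to 687 in the dark (median 499.8), against 181 to 267 in the light (median 219), without overlap, with 1.10 ± 0.17 (SE; adjusted p = 0.013).

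Enzyme genes followed. Inmt, which methylates indoles such as tryptamine, ranged over 429 to 1158 in the dark (median 831), against 271 to 509.7 in the light (median 389.8), with 0.98 ± 0.20 (SE; adjusted p = 0.048). Upp1, uridine phosphorylase, had 6184, 5276 and 3832 at 8pm and 2832, 3449.5 and 3179 at 12am, against 4361, 2204 and 2633 at 8am and 1421, 1601 and 1310.1 at 12pm, where 8pm was the highest time and noon the lowest, with 0.94 ± 0.16 (SE; adjusted p = 0.017). Kyat1, a kynurenine aminotransferase, ranged over 734 to 1446 in the dark (median 1300.0), against 368 to 996 in the light (median 623), with 0.91 ± 0.15 (SE; adjusted p = 0.017). Tfap2b, a transcription factor gene, ranged over 157 to 443 in the dark (median 206), against 63.1 to 176 in the light (median 123), with 0.96 ± 0.19 (SE; adjusted p = 0.043). In all of these enzyme genes and in Tfap2b the dark and light ranges overlapped.

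The remaining higher genes, named after their values were seen, included Akr1c19, an aldo-keto reductase gene, which had 4049, 3282 and 3548 at 8pm and 4341, 3229 and 3673 at 12am, against 2403, 2241 and 2092 at 8am and 2123, 2288 and 1662 at 12pm. Every dark array was above every light array, and the difference was 0.79 ± 0.11 (SE; adjusted p = 0.0062). Hsf2, heat shock factor 2, was also without overlap (382 to 515 in the dark (median 416), against 201 to 345 in the light (median 249)), with 0.75 ± 0.14 (SE; adjusted p = 0.033). Others were Gda, guanine deaminase (0.65, adjusted p = 0.016), Tom1, of endosomal sorting (0.62, adjusted p = 0.016), Pde9a, a cyclic GMP phosphodiesterase (0.57, adjusted p = 0.043), Sgk2, a kinase related to SGK1 (0.52, adjusted p = 0.031), Cndp2, a dipeptidase (0.44, adjusted p = 0.047), and Sox21. The 1 higher gene left is a clone.

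Further probe sets were kept for some of the genes that passed. Among the 24 higher genes, 14 of 14 further probe sets had the same sign as the gene, and among the 33 lower genes 14 of 16 did. For genes that passed with every array left out, further probe sets differed by 0.63 for Tef, 1.11 for Usp2 and -0.51 for Spon2. Those of Per2 differed by 1.23 and 0.69, and those of Hmgb2 by -0.88 and -0.36.

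Epithelial barrier and transport genes gave few calls, where 0.256% of all genes fell and 0.186% rose. Of 15 tight junction genes 1 fell, Cldn8, a claudin that seals the distal nephron and colon against sodium leak, with 2665, 2366 and 4619 at 8pm and 2331, 2358 and 3809.6 at 12am, against 5786, 8015 and 5683 at 8am and 5199, 5267 and 4132 at 12pm and a difference of -0.93 ± 0.17 (SE; adjusted p = 0.031). The sides overlapped, since 8pm c was above 12pm c. The list median was -0.09, and its mean was 11.12 to 11.34 in the dark and 11.35 to 11.52 in the light.

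No gene of sodium absorption passed among 16 tested (9 above 0, median 0.10). Sgk1, the kinase that raises sodium channel activity, ranged over 3268 to 8842 in the dark (median 5036), against 1909 to 4813 in the light (median 2941), with 0.79 ± 0.24 (SE; adjusted p = 0.14). Scnn1b, a subunit of that channel, differed by 0.41 (adjusted p = 0.15), and Wnk1, a kinase of salt transport, by -0.29 (adjusted p = 0.12).

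Among 8 potassium transport genes none passed, with a median of 0.0032 (-0.0366 to 0.0612 under the alternatives). Atp12a, the colonic proton potassium pump, had the lowest p, with 16698, 14304 and 15204 at 8pm and 9409.9, 13858 and 12337 at 12am, against 9771, 7439.8 and 9217 at 8am and 10633, 10972 and 10388 at 12pm and 0.47 ± 0.11 (SE; adjusted p = 0.065). It was highest at 8pm. Kcnq1 differed by 0.38 (adjusted p = 0.16), and Kcne3, its partner in colon crypts, by -0.06 (adjusted p = 0.85). Of 15 anion and proton exchange genes none passed (9 above 0, median 0.13, or -0.0089 with the mean of probe sets). Best2, a bicarbonate channel of goblet cells, differed by 0.33 (adjusted p = 0.11), Slc26a3 by 0.26 (adjusted p = 0.15), and Cftr, the chloride channel, by -0.38 (adjusted p = 0.21).

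The metabolic lists gave 1 call, of a gene that rose, where 0.186% of all genes rose. Ephx1, microsomal epoxide hydrolase, was the sole gene that rose among 20 xenobiotic metabolism genes (12 above 0, median 0.16). It had 1195, 995 and 1064 at 8pm and 1121, 927 and 1259 at 12am, against 743, 571 and 645 at 8am and 672, 815 and 719 at 12pm. All dark arrays were above all light arrays, and the difference was 0.64 ± 0.11 (SE; adjusted p = 0.022).

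In cholesterol synthesis, 13 of 16 genes had a difference above 0 (median 0.20), and none passed. Lss, lanosterol synthase, ranged over 877 to 1765 in the dark (median 1281), against 616 to 1165 in the light (median 823), with 0.58 ± 0.15 (SE; adjusted p = 0.087). In fatty acid oxidation and ketogenesis, 8 of 15 were below 0 (median -0.11) and none passed. Between 8pm and 8am 10 of the 15 were above 0 (median 0.08), and between 12am and 12pm 10 were below 0 (median -0.14). Acadm, medium-chain acyl-CoA dehydrogenase, ranged over 3090.3 to 3845 in the dark (median 3278), against 4106 to 4615 in the light (median 4360.0), without overlap, with -0.35 ± 0.08 (SE; adjusted p = 0.068), and Cpt1a, which brings fatty acids into mitochondria, differed by -0.29 (adjusted p = 0.14). Of 11 glycolysis genes 9 were above 0 (median 0.13), with Slc2a1, a glucose transporter, at 0.36 (adjusted p = 0.098). Without the 3 arrays of highest pancreatic signal both medians changed sign, to 0.0005 for fatty acid oxidation and ketogenesis and -0.0144 for glycolysis.

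Among 16 glucocorticoid targets 9 were above 0 (median 0.03, or -0.017 with quantile normalization), and none passed. Between 8pm and 8am 14 of the 16 were above 0 (median 0.13), and between 12am and 12pm 10 were below 0 (median -0.07). Zbtb16 differed by 0.47 (adjusted p = 0.095). The metallothionein genes Mt1 and Mt2 had the other sign, at -0.75 (adjusted p = 0.14) and -0.99 (adjusted p = 0.14), with a range for Mt2 of 1143 to 5309 in the dark (median 2105), against 2203 to 6346 in the light (median 4668).

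Most members of the immune lists had a difference above 0, without a call, where 54.8% of all genes were above 0. All 9 MHC class II genes, which present antigen to T cells, had a difference above 0 (median 0.46), 5 with an unadjusted p under 0.05. Of all 12870 genes, 2110 had such a p in either direction. H2-Eb1 ranged over 1769 to 4220.4 in the dark (median 3226), against 1427 to 3276 in the light (median 2181), with 0.53 ± 0.16 (SE; adjusted p = 0.14), and the invariant chain gene Cd74 differed by 0.46 (adjusted p = 0.17). Their list mean overlapped widely, at 9.11 to 9.98 in the dark and 8.71 to 9.91 in the light.

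Interferon response genes were above 0 in 15 of 18 (median 0.33, none passed). An unadjusted p under 0.05 was found for 9 of them, and for 2110 of all 12870 genes in either direction. Gbp2, a guanylate-binding protein gene, had 1073, 1119 and 1207 at 8pm and 789, 2173 and 2252 at 12am, against 792, 691 and 646 at 8am and 862, 652 and 658 at 12pm, highest in 12am b and 12am c, with 0.89 ± 0.21 (SE; adjusted p = 0.068). Psmb9, a subunit of the immunoproteasome, had no overlap (765 to 1182 in the dark (median 893), against 649.9 to 734 in the light (median 689.6)) and differed by 0.42 (adjusted p = 0.12). The list mean was 9.08 to 9.68 in the dark and 8.89 to 9.09 in the light. Of 13 B and plasma cell genes 12 were above 0 (median 0.38), and of 13 macrophage genes 11 (median 0.26), and none passed. Cd79a, of the B cell receptor, ranged over 181 to 589 in the dark (median 315), against 70 to 580.3 in the light (median 137), with 0.79 ± 0.41 (SE; adjusted p = 0.35). Fcgr1, a macrophage receptor for antibody, ranged over 192 to 379 in the dark (median 244), against 135 to 198 in the light (median 182), with 0.48 ± 0.15 (SE; adjusted p = 0.15).

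Transcripts of the exocrine pancreas were present in the 12 o'clock arrays of both sides. The mean of 12 such genes was 8.19 to 8.40 in the 8pm arrays and 9.49 to 14.48 in the 12am arrays, against 7.87 to 8.25 in the 8am arrays and 9.48 to 11.93 in the 12pm arrays. It was highest in 12am b (14.48), 12am a (12.77) and 12pm c (11.93). Prss2, a trypsinogen gene, had 140.2, 127 and 168 at 8pm and 10480.3, 26906 and 389.6 at 12am, against 129.6, 77.3 and 65.7 at 8am and 497, 365 and 4260.2 at 12pm. All 12 genes had a difference above 0 (median 1.15), and none passed (Prss2 1.50, adjusted p = 0.36). The list holds Zg16, which colon goblet cells also express, and Sycn and Cela1 had high signal in every array. Without the 3 highest arrays the comparison called 105 genes, 37 higher and 68 lower, of which 32 were among the 57, and the median of the mitosis list was -0.89.

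**Figure D5:**
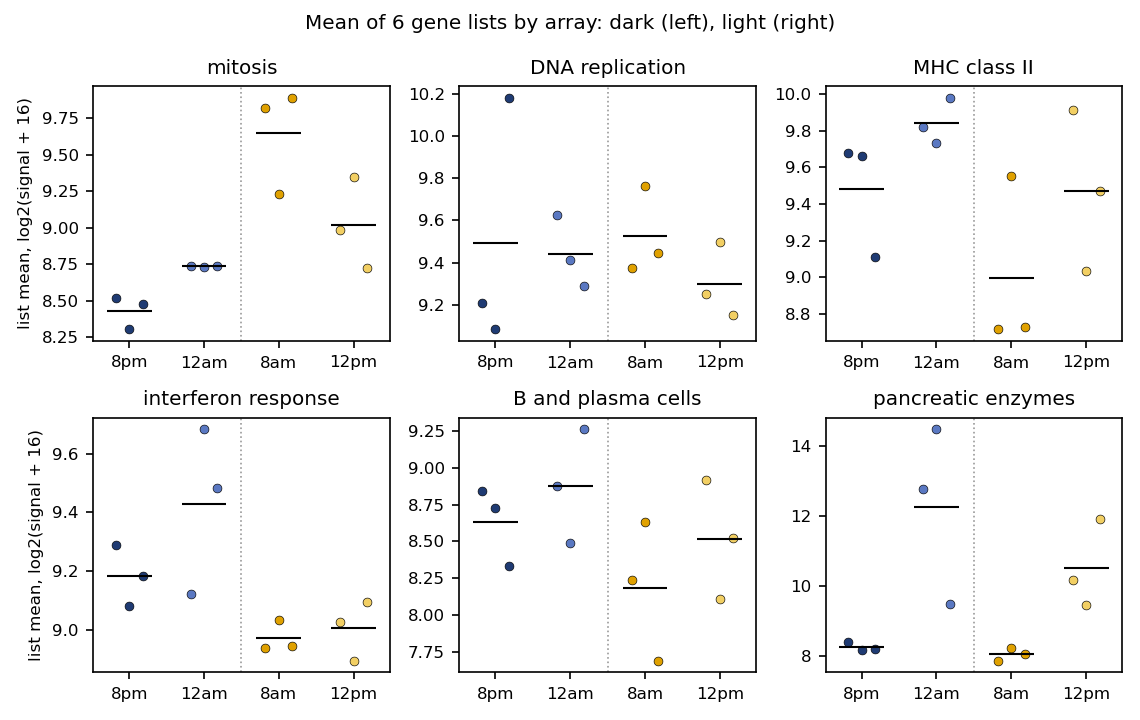
Mean log2(signal + 16) of the genes of 6 lists on the y axis, by collection time on the x axis, with 8pm and 12am (dark) left of the dotted line and 8am and 12pm (light) right of it; each point is 1 array and each line the mean of 3 arrays. The mitosis list is highest at 8am, DNA replication has 1 high array at 8pm, the immune lists overlap between dark and light, and the pancreatic list is high at 12am and 12pm and low at 8pm and 8am.

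The 4am and 4pm arrays, which the comparison did not use, mostly had other directions. Of the 24 genes that were higher in the early dark, 6 had a 4am value above the 4pm value (median of 4am minus 4pm -0.36), and of the 33 that were lower, 12 had a 4am value below it (median 0.18). Tef differed by -2.12 between 4am and 4pm, the opposite sign to both early pairs of times. Dbp differed by -3.73, the opposite sign to its pooled difference and to 8pm minus 8am (3.72). That sign was the same as for 12am minus 12pm (-0.40). Of these 6 arrays 4 had Gapdh ratios above 2, up to 36.05, and no test was made.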

How the data were processed

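Each value of the deposited table is a linear signal intensity of 1 probe set on 1 array. Per the submitters' processing notes the authors used GCOS, Affymetrix's own array analysis program, and no version is given. Trimming 2% of probe sets at each end left a mean of 500 on every array, and the authors' scaling was kept. Detection calls and background levels are not part of the table, and precision is set by how many arrays there are. No pair of arrays held identical values.

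Of 45101 probe sets, 64 controls were set apart. Of the 45037 left, 34945 had 1 symbol in the platform annotation, 932 had several and 9160 were not listed, and only those with 1 symbol were used for genes. A filter on the mean of log2(signal + 16) across the 18 arrays, at its 40th percentile (7.10), kept 27022 probe sets; a gene was read from its brightest one, and 12870 genes were tested. Samples were grouped by the time in their titles. limma 3.58.1 in R 4.3.3 fitted 4 time means to 12 arrays, with 8 residual degrees of freedom before moderation and a trend on the mean level. The contrasts were the mean of 8pm and 12am minus that of 8am and 12pm, its parts at each hour, and the difference of those parts. Tests were two-sided, p-values were adjusted by the Benjamini-Hochberg method over all genes, and the fit was tested on simulated data. Since p-values pool the spread over genes, they can be given for 3 arrays per time.

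Genes named are the 12 of largest difference in each direction, all tested clock genes and outputs, up to 4 members of each other list described, the genes of lowest p for the interaction and other calls where said. The comparison, the 48 gene lists and the alternatives were chosen with earlier results of these data known, and list counts are descriptions. Motifs were searched in RefSeq promoters on build GRCm38.p6. Alternatives were the constant added, 2 other scalings, 3 other filters, 2 ways of joining probe sets, other models, and leaving out each array.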

Additional observations from a re-analysis of the deposited data

Results flagged for a closer look

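The check covered 296 sets of 6 arrays, each a named gene or a list described singly, on the dark or the light side. In 6 of them, 1 array had a gap to its nearest neighbour that was too large a share of the range by Dixon's critical value. Chance alone flags about 1 in 20 sets. Lists that are not described singly, such as heat shock and amino acid response, were not checked. In the dark, Gins2, of the replicative helicase, was 9.28 on the log2 scale in 8pm c and 6.14 to 6.82 in the other arrays (gap 0.783 of the range), and its difference was -1.15 without that array, against -0.71 with it. The same array was lowest for the mean of the MHC class II list, at 9.11 against 9.66 to 9.98 in the other dark arrays (0.634), and for the mean of the macrophage list, at 9.47 against 9.73 to 9.88 (0.651). Kcnq1, a potassium channel gene, was lowest in 12am c, at 9.72 against 10.27 to 10.54 (0.663).

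In the light, Med21 was lowest in 8am b, at 7.15 against 8.09 to 8.41 in the other arrays (0.746), and Fcgr1 was lowest in 8am a, at 7.24 against 7.56 to 7.74 (0.628). Without 8pm c the comparison of dark and light called 40 genes. Without 8am a it called 44, without 8am b 58 and without 12am c 60.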

How the results depend on the processing

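The number of calls varied with the processing: of 57 genes called between dark and light (24 higher, 33 lower), 1 was called when all 18 arrays set the spread (1 higher and 0 lower, with 1 gene for 8pm against 8am and 0 for 12am against 12pm). A fit to the 12 arrays with dark or light as its only term, without hour, called 4 (4 higher, 0 lower). A fit with hour as an added term called 29 genes (14 higher, 15 lower), no filter 37 (20 lower, and 8 for 8pm against 8am), the mean of probe sets 106 (40 higher, 66 lower), every probe set 121 (86 lower, 9 for 8pm against 8am, 280 for 12am against 12pm) and array weights 547 (273 higher, 274 lower, 205 for 8pm against 8am, 324 for 12am against 12pm, 18 for the interaction). Other scalings gave 63 each; the 16 genes of 8pm against 8am became 2 with quantile normalization, 4 with median centring, 30 with a constant of 64, 30 in the upper 40% of probe sets and 28 with robust moderation, and the 102 of 12am against 12pm became 225 with quantile normalization and 28 with no trend. The cause of these changes was not tested. With 1 array left out, calls between dark and light ranged from 7 (without 8pm a) to 89 (without 12pm c), those higher from 5 to 38, those lower from 2 to 51, for 8pm against 8am from 1 (without 8pm a or 8pm b) to 40 (without 12am a), for 12am against 12pm from 6 (without 12pm a or 12pm b) to 129 and for the interaction from 0 to 5. Chosen after seeing the data, leaving out the 3 arrays of highest pancreatic signal gave 105 (37 higher, 68 lower, 28 for 8pm against 8am, 63 for 12am against 12pm, 6 for the interaction), and leaving out 8pm c and 12am a gave 76, with 51 for 8pm against 8am and 3 for the interaction. With the replicate block, 37 genes were called, 14 of them higher, with 3 for 8pm against 8am and 43 for 12am against 12pm. Correlations of same-letter deviations ran from -0.29 to 0.18 over 18 pairs, 2 of them above 0.1. The labels do not say what the letters of the arrays stand for, and whether they mark a batch was not tested. The difference changed sign for Nampt with median centring (-0.005) and without 8am c (-0.0131), 12pm a (-0.0121) or 12am c (-0.0701; with 1 array left out, -0.0701 to 0.1159), for Cipc with the mean of probe sets (-0.0696), for Lonrf3 without 12pm b (-0.0125, with 1 array left out up to 0.3014), for Dtx4 without 12am a (-0.008, up to 0.1897) and without 8pm c and 12am a (-0.0517), and for Kcne3 without 8am a (0.0235, down to -0.166). The direction of all 54 named called genes was kept under every alternative that gave a value.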

Other observations

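Several gene groups of the colon showed small differences between dark and light. Cytosolic ribosomal protein genes were above 0 in 22 of 23 (median 0.10, against 0.03 for all genes), and none passed the test. Their median was 0.0174 with quantile normalization and -0.0454 without the 3 arrays of highest pancreatic signal. Heat shock genes were below 0 in 12 of 16 (median -0.10), amino acid response genes above 0 in 12 of 15 (median 0.17), and genes of amino acid, peptide and butyrate transport above 0 in 9 of 13 (median 0.24). The mean of the amino acid response list was 9.88 in 12am b and 8.90 to 9.20 in the other dark arrays. In the light it was 8.77 to 9.09. Without the 3 arrays of highest pancreatic signal, which include 12am b, the median of that list was 0.05. The mean of the heat shock list was 11.51 in 8pm c and 11.01 to 11.14 in the other dark arrays, against 10.90 to 11.63 in the light. The respiratory chain and the proteasome had medians of 0.0038 and -0.02, whose signs also turned under other settings.

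Lists of several cell types of the colon wall had medians near that of all genes. Goblet cell genes had a median of 0.05, absorptive colonocyte genes 0.07, smooth muscle genes -0.04, enteroendocrine genes -0.05, and genes of enteric neurons and glia 0.06, and each of these 5 medians changed sign under at least 1 alternative. None of the 327 members of the 23 lists of 5 or more tested genes that are not described singly passed the test.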
